A study of Rattus norvegicus with 24 samples.

Results

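The genes described here are 7 neurotrophins, growth factors and receptors measured in the dentate gyrus of young and aged rats: the ligands Bdnf, Ntf3, Fgf2 and Vegfa and the receptors Ntrk2, Ntrk3 and Fgfr1. They were chosen by name, as every probe set of the array whose annotated gene symbol is exactly one of these 7, which gave 14 probe sets of the 31099 in the table. Male Long-Evans rats were sampled, with 1 Affymetrix rat genome array for the dissected dentate gyrus RNA of each animal, and levels are log2 values, so that a difference of 1 is a doubling. Young rats were 6 months old and aged rats 24 to 26 months old. All were trained in a Morris water maze, a test of spatial memory, and their tissue was taken 2 weeks after the end of testing. Nothing was altered by treatment or genotype: the aged groups are defined by performance, aged rats whose learning index lay within the range of young rats being called unimpaired and those that scored worse impaired. Of 24 labelled arrays, 3, 1 in each group, have empty columns because the submitters left them out for quality, so values came from 8 young, 6 unimpaired and 7 impaired rats.

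Neurotrophins are secreted proteins that bind Trk receptor tyrosine kinases on neurons: brain-derived neurotrophic factor (Bdnf) acts on TrkB, the product of Ntrk2, and neurotrophin 3 (Ntf3) chiefly on TrkC, the product of Ntrk3. In the dentate gyrus, granule neurons make Bdnf and send it along their mossy fibre axons, where it acts in synaptic plasticity and in the survival of newly born neurons. TrkB exists as a full-length kinase, found mainly in neurons, and as a truncated form without a kinase domain that is abundant in astrocytes. Fibroblast growth factor 2 (Fgf2), acting on receptors such as Fgfr1, and vascular endothelial growth factor A (Vegfa) are known to promote the proliferation of neural progenitors, and Vegfa drives the growth of blood vessels.

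The sequences around the start sites of the ligand genes show how differently they are organised. A probe set outside the first exons cannot tell which start a transcript used. RefSeq's GRCr8 annotation gives Bdnf 6 start windows of 300 bases each, which lie mostly upstream of the start, spread over 20225 bases of chromosome 3, whereas it gives Ntf3 3, Vegfa 2 and Fgf2 1. Ntf3 windows 1 and 2 nearly coincide, and Bdnf windows 5 and 6 share most of their bases, so the counts are not of separate regions. The windows shown are the fourth of Bdnf, at chr3:116637608-116637907, the second of Bdnf, at chr3:116620585-116620884, and the first of Vegfa, at chr9:22452604-22452903, all on the plus strand. They were chosen because they hold, respectively, a cyclic-AMP response element, an E-box and clustered GC boxes. Capitals mark matches, on either strand, to any of the 6 motifs spelled out after the sequences.
Bdnf window 4: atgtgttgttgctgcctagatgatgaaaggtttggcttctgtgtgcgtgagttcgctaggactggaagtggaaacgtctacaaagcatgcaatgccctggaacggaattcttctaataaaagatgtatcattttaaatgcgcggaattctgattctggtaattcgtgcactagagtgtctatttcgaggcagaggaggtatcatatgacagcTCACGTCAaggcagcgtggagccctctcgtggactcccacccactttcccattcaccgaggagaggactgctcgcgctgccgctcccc
Bdnf window 2: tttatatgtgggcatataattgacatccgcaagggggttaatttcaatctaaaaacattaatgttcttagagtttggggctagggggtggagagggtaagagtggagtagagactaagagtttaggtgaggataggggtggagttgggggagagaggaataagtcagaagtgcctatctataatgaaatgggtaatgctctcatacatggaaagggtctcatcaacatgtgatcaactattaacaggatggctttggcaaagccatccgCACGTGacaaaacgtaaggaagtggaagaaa
Vegfa window 1: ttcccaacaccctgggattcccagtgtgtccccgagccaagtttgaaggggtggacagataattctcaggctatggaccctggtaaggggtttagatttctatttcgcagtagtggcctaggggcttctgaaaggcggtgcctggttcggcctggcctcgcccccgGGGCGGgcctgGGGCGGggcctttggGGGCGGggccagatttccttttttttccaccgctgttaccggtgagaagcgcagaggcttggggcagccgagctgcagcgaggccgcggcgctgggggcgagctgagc
The capitals in the fourth Bdnf window spell TCACGTCA, an element of the type bound by CREB and related activity-dependent factors, which was present in 0.40% of the 33469 start windows in the table. It overlaps a match to the shorter site TGACG, found in 21.2% of windows, and a match to ACGTG, the core bound by hypoxia-inducible factors, found in 19.3%. The palindromic element TGACGTCA, found in 1.83% of windows, matched none of the 12 windows of the 4 ligand genes. In the second Bdnf window the capitals spell the E-box CACGTG, found in 6.42% of windows, which contains ACGTG on both strands. The Vegfa window held 3 GC boxes, GGGCGG, the motif of Sp1-type factors, found in 33.1% of windows. These matches describe the letters only, and no binding was measured here.

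Level sorted the probe sets before any comparison. Of the 14, 10 probe sets of 6 genes were above 4 on the log2 scale on all 21 arrays and could be tested. The other 4 were below 4 on every array: Fgf2 1387606_at at 1.98 to 2.31, Bdnf 1368678_at at 3.28 to 3.72, Ntrk2 1370652_at at 2.23 to 2.29 and Vegfa 1370081_a_at at 2.65 to 2.73. For Fgf2 this was the only probe set, so its levels give no comparison between groups. When the filter on level was dropped, these 4 had adjusted p of 0.681 or more in the 4 comparisons. The tissue carried markers of dentate granule neurons. The log2 level of Prox1, a transcription factor of granule neurons, was 10.5 to 11.0 on its brighter probe set. The other Prox1 probe set lay at 2.05 to 2.10. Levels were 10.9 to 11.6 for the calcium buffer Calb1 and 8.67 to 9.41 for the channel gene Trpc6. Those of Dsp were 6.31 to 8.59 on its brighter probe set and 1.29 to 1.33 on the other. Markers of CA1 and CA3 neurons gave signal too, with Mpped1 at 7.53 to 9.78 on its brighter probe set. Coch was above 4 on 2 arrays, at up to 8.85, while Iyd was below 4 on every array. The share of such cells was not tested.

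Over all probe sets, array medians were 3.77 to 3.84, and 48.3% to 48.8% of probe sets were above 4. These medians lie below the level filter, so they do not show that the tested probe sets shared a scale. On meningeal markers 4 arrays stood apart. A meningeal mean was taken over the 17 probe sets of 9 meningeal genes, of which 2 genes could be tested. On the log2 scale it reached 4.69 for impaired replicate 2, 4.33 for replicate 3 and 3.63 for replicate 7 of that group. It was 3.44 for young replicate 5, while the other 17 arrays lay at 2.94 to 3.15. No batch is given in the labels. Across all 15177 probe sets tested with limma, 1.11% passed an adjusted p of 0.05 in aged against young rats (168 probe sets), 0.514% in impaired against young (78), 1.13% in unimpaired against young (172) and 0% in impaired against unimpaired. Unadjusted p was below 0.05 for 14.6%, 12.4%, 17% and 14.5% of probe sets in the same order. Each rat gave 1 array, and the first 3 comparisons share the young arrays. In bulk tissue, fewer cells of a type and less RNA per cell cannot be told apart.

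None of the 10 member probe sets passed in any of the 4 comparisons (limma, Benjamini-Hochberg adjustment over all probe sets tested). At an unadjusted p below 0.05 the counts were 1 of 10 for aged against young, 0 for impaired against young, 3 for unimpaired against young and 1 for impaired against unimpaired. In aged against young rats 5 were higher and 5 lower, with a median difference of -0.017 where all probe sets tested had -0.014, and 43.2% of all were higher. In impaired against young rats the split was again 5 and 5, with a median of 0.0018 against 0.010 for all, of which 55.2% were higher. In unimpaired against young rats 3 were higher and 7 lower, with a median of -0.05 against -0.04 for all, of which 34.0% were higher. Impaired against unimpaired rats gave 9 higher and 1 lower, with a median of 0.06 against 0.05 for all, of which 72.4% were higher; after median centring Ntrk2 1368972_at, 1383135_at and 1397246_at and Ntrk3 had the other sign in this comparison, so the split rests on the scaling. In each comparison the members thus lay near the table as a whole. Groups without overlap were found for 0 of the 10 in each comparison; over all probe sets tested the share was 0.0857% for aged against young, 0.316% for impaired against young, 0.949% for unimpaired against young and 1.05% for impaired against unimpaired rats, at which 0 of 10 says little about the members.

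**Figure D1:**
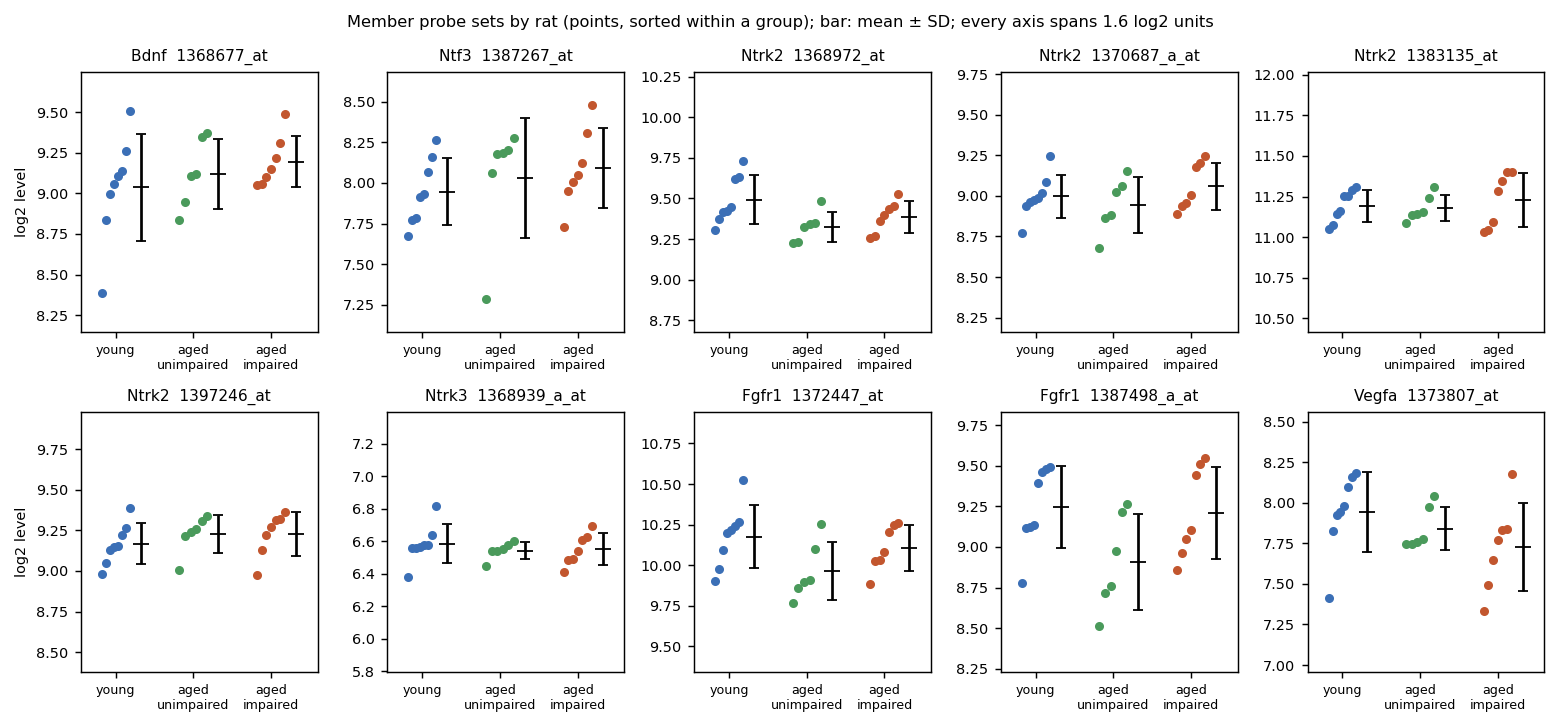
Log2 level (vertical axis) of the 10 member probe sets in each rat, 1 point per rat, for young (n = 8), aged unimpaired (n = 6) and aged impaired (n = 7) rats; the bar beside each group is the mean ± SD, and every axis spans the same number of log2 units. The groups overlap in every panel, Fgfr1 1387498_a_at has its lowest points among unimpaired rats, and 1 unimpaired rat lies at 7.29 for Ntf3 with the next at 8.06.

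Among the ligands, Bdnf was read by 1368677_at, where young rats ranged from 8.39 to 9.51 (median 9.08), unimpaired rats from 8.83 to 9.37 (median 9.11) and impaired rats from 9.05 to 9.49 (median 9.15). The lowest young rat lay below all aged rats, and the highest young rat lay above them all. Group means were ordered young, 9.04 ± 0.33 (SD, n = 8), unimpaired, 9.12 ± 0.21 (n = 6), and impaired, 9.20 ± 0.16 (n = 7), but no neighbours in that order differed beyond their spread. Aged rats exceeded young rats by 0.12 ± 0.11 (SE), with a 95% interval of -0.10 to 0.34, which is 0.932 to 1.27 times the young level, and limma's adjusted p was 0.644. In impaired rats all 7 arrays were above the young mean, with a difference of 0.16 (interval -0.10 to 0.42, adjusted p = 0.653 by limma). The aged minus young difference was 0.19 without young replicate 1 and 0.03 without young replicate 3, and the impaired minus young difference was 0.23 and 0.07 in the same order.

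Neurotrophin 3, the ligand of TrkC, spread more widely than its group differences. Its probe set 1387267_at lay between 7.68 and 8.26 in young rats (median 7.93), between 7.29 and 8.27 in unimpaired rats (median 8.18) and between 7.73 and 8.48 in impaired rats (median 8.05). One unimpaired rat, replicate 4, was the lowest of all 21, and the other unimpaired rats lay at 8.06 to 8.27. The aged rats were higher by 0.11 ± 0.12 (SE; interval -0.13 to 0.36, adjusted p = 0.698 by limma), with 11 of 13 above the young mean. This was 0.19 without unimpaired replicate 4 and 0.05 without the 4 meningeal-high arrays. Impaired rats exceeded unimpaired rats by 0.06 (interval -0.24 to 0.36), and this difference was -0.09 without unimpaired replicate 4.

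Vegfa, the angiogenic ligand, ran the other way in its mean. Probe set 1373807_at ranged from 7.41 to 8.18 in young rats (median 7.96), from 7.75 to 8.04 in unimpaired rats (median 7.77) and from 7.33 to 8.17 in impaired rats (median 7.77). The lowest young rat, replicate 7, lay within the range of impaired rats. Means were 7.94 ± 0.25 in young, 7.84 ± 0.13 in unimpaired and 7.73 ± 0.27 in impaired rats (SD), in an order whose neighbours did not differ beyond their spread. Impaired rats differed from young rats by -0.21 ± 0.11 (SE; interval -0.45 to 0.02), with 6 of 7 below the young mean and an adjusted p of 0.463 by limma. When the 4 meningeal-high arrays were left out this difference was -0.06 (adjusted p = 0.923 by limma), and the part those markers have in it was not tested.

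**Figure D2:**
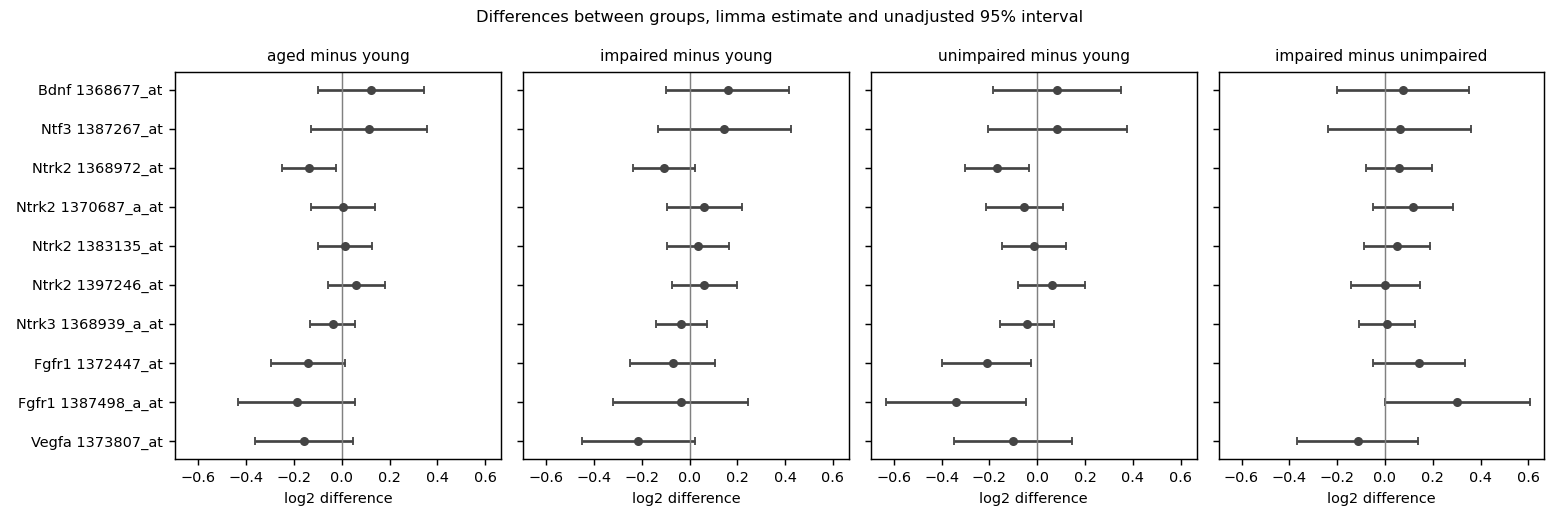
Difference between groups on the log2 scale (horizontal axis) for each member probe set, with the limma estimate as a point and its unadjusted 95% interval as a bar, in 4 panels for the 4 comparisons. Every interval for Bdnf, Ntf3 and Vegfa spans 0, and those that do not belong to Ntrk2 1368972_at and the Fgfr1 probe sets.

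The receptor of Bdnf had 4 tested probe sets, which gave different estimates. For 1368972_at, young rats ranged from 9.31 to 9.73 (median 9.43), unimpaired rats from 9.23 to 9.48 (median 9.33) and impaired rats from 9.26 to 9.53 (median 9.40). The 3 highest rats on this probe set were young, and 12 of 13 aged rats lay below the young mean. The difference of aged from young rats was -0.14 ± 0.05 (SE; interval -0.25 to -0.03, unadjusted p = 0.0184, adjusted p = 0.228 by limma). It did not pass in any of the alternatives run, and was -0.17 when the 4 meningeal-high arrays were left out. For unimpaired against young rats it was -0.17 ± 0.06 (SE; adjusted p = 0.190 by limma), with 6 of 6 below the young mean.

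The other 3 Ntrk2 probe sets gave estimates close to 0 or above it. Probe set 1383135_at had means of 11.19 ± 0.10 in young, 11.18 ± 0.08 in unimpaired and 11.23 ± 0.17 in impaired rats (SD), with an aged minus young difference of 0.01 (interval -0.10 to 0.12, or 0.932 to 1.09 times the young level). Its impaired rats fell on both sides of the young range: they ran from 11.03 to 11.40, the young from 11.05 to 11.31. For 1370687_a_at the means were 9.00, 8.94 and 9.06 in young, unimpaired and impaired rats, and the aged minus young difference was 0.0044 (interval -0.13 to 0.14). For 1397246_at they were 9.17, 9.23 and 9.23, and the difference was 0.06 (interval -0.06 to 0.18).

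The within-rat gap between Ntrk2 probe sets was compared between groups to see whether 1368972_at stood apart from its own gene. This comparison was chosen after the values were seen and covered 28 tests over Ntrk2 and Fgfr1. The log2 value of 1368972_at minus that of 1370687_a_at was 0.50 ± 0.12 in young rats (SD, n = 8) and 0.35 ± 0.11 in aged rats (n = 13), lower in 12 of 13 aged rats than the young mean (two-sided exact permutation test, p = 0.00789, adjusted p = 0.0737). The gap to 1397246_at differed in aged from young rats by -0.20 (exact permutation p = 0.00721, adjusted p = 0.0737). None of the 28 passed after adjustment. Which transcript forms these probe sets read is not given in the sources used here. Over the 21 arrays, after subtracting group means, pairs of Ntrk2 probe sets correlated at 0.13 to 0.67, while the pair of Fgfr1 probe sets correlated at 0.82.

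Ntrk3, the receptor of neurotrophin 3, had the narrowest interval of the members in aged against young rats. Probe set 1368939_a_at ranged from 6.38 to 6.81 in young rats (median 6.57), from 6.45 to 6.60 in unimpaired rats (median 6.55) and from 6.41 to 6.69 in impaired rats (median 6.54). The groups lay on top of one another. The aged minus young difference was -0.04 ± 0.05 (SE), and its interval of -0.13 to 0.06 bounds the aged level to 0.913 to 1.04 times the young level.

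Fgfr1, a receptor of fibroblast growth factors on neurons and progenitors, had its lowest mean in unimpaired rats on both of its probe sets. On 1387498_a_at, young rats ranged from 8.78 to 9.49 (median 9.27), unimpaired rats from 8.51 to 9.26 (median 8.87) and impaired rats from 8.86 to 9.55 (median 9.10). The highest unimpaired rat lay below the highest young and impaired rats, and the ranges overlapped. Unimpaired rats differed from young rats by -0.34 ± 0.14 (SE; interval -0.63 to -0.05, unadjusted p = 0.0245, adjusted p = 0.221 by limma). Impaired rats exceeded unimpaired rats by 0.30 ± 0.14 (SE; interval 0.0019 to 0.61, unadjusted p = 0.0487, adjusted p = 0.341 by limma), with 6 of 7 above the unimpaired mean. These were the largest member differences of the 2 comparisons, and neither passed.

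The second Fgfr1 probe set, 1372447_at, ordered the groups alike. Young rats ranged from 9.90 to 10.52, unimpaired rats from 9.76 to 10.26 and impaired rats from 9.88 to 10.26. Unimpaired rats differed from young rats by -0.21 ± 0.09 (SE; adjusted p = 0.235 by limma), and impaired rats exceeded unimpaired rats by 0.14 ± 0.09 (SE; adjusted p = 0.491 by limma). With the 4 meningeal-high arrays left out, the unimpaired minus young differences were -0.25 for this probe set and -0.41 for 1387498_a_at, with adjusted p of 0.182 and 0.158 by limma. In the same unimpaired rats the endothelial and meningeal marker means were narrowly below those of all young rats, before any further scaling of the arrays. The part of those markers in the Fgfr1 values was not tested.

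Levels of the members were then related to one another across rats, using the tested probe set with the highest mean for each gene and subtracting group means. Among 15 pairs none passed adjustment (two-sided permutation test within groups, adjusted p of 0.956 for each). The largest in size was Ntf3 with Fgfr1, with a Pearson r of -0.40 (permutation p = 0.0866, n = 21) and a Spearman rho of -0.32 (p = 0.169). Without the 2 arrays farthest from the Ntf3 median r was -0.10, so it rested on those arrays. With the 4 meningeal-high arrays left out r was -0.69 (permutation p = 0.00261, adjusted p = 0.0391, n = 17). Those 17 arrays still held the 2 farthest from the Ntf3 median, unimpaired replicate 4 and impaired replicate 8. The ligand and receptor pairs gave r of 0.08 for Bdnf with Ntrk2 (permutation p = 0.708) and 0.01 for Ntf3 with Ntrk3 (permutation p = 0.956).

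Genes whose levels ran most like each member over the 21 arrays, with no group means subtracted, were listed as a description. For Ntrk2 1383135_at they were Aldoc (r = 0.85), Ahcyl1 (r = 0.85) and S100b (r = 0.84); Aldoc, a glycolytic aldolase, and S100b, a calcium-binding protein, are both known as astrocyte markers. For Fgfr1 1372447_at they were Ptprs (r = 0.83), Cpe (r = 0.78), a carboxypeptidase that acts in neuropeptide processing and Bdnf sorting, and Syp (r = 0.76), which encodes the synaptic vesicle protein synaptophysin. For Bdnf they were Fbxo34, Ift81 and Shf (r = 0.77, 0.75 and 0.75), and for Ntf3 Plgrkt, Arg1 and Foxn2 (r = 0.81, 0.78 and 0.73). Ntrk3 ran most like Phrf1, Pogz and Mllt10 (r = 0.74, 0.73 and 0.72), and Vegfa most like Zfp236, Adra2c and Srp19 (r = 0.75, 0.74 and 0.71). Values on 1 array share its hybridization and scaling, and the part of that in these correlations was not tested.

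The likeness of Ntrk2 to astrocyte genes was then set against cell type marker means, a step chosen after that likeness was seen. Of 70 relations, between 10 member probe sets and the means of 7 marker lists, 1 passed adjustment: Ntrk2 1383135_at with the mean of 8 astrocyte genes. Its Pearson r was 0.88 (two-sided permutation test within groups, p = 3e-05, adjusted p = 0.0021, n = 21) and its Spearman rho 0.83 (adjusted p = 0.0119). Because the list holds Aldoc and S100b, this is not separate from the likeness above. The r was 0.80 within young, 0.54 within unimpaired and 0.98 within impaired rats, and 0.84 without the 2 arrays farthest from the median of the marker mean (adjusted p = 0.0175, permutation). With the 4 meningeal-high arrays left out r was 0.83 and the adjusted p was 0.0938 (permutation, n = 17).

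The same astrocyte mean gave r of 0.26 with Ntrk2 1368972_at, 0.44 with 1370687_a_at and 0.52 with 1397246_at, none of which passed. Of the 15160 tested probe sets outside the list and Ntrk2, 1 had an r as high as that of 1383135_at, and their median r was 0.07. For Bdnf the astrocyte r was -0.04 and for Ntf3 0.04. Impaired replicate 2, the array with the most meningeal signal, had the highest astrocyte mean, and impaired replicate 3, with the second most, had one of the lowest. Of the 13 astrocyte probe sets 1 passed in aged against young rats, Gfap, the intermediate filament protein of astrocytes, at 0.40 ± 0.08 (SE; adjusted p = 0.0154 by limma), and 10 of 13 were lower.

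**Figure D3:**
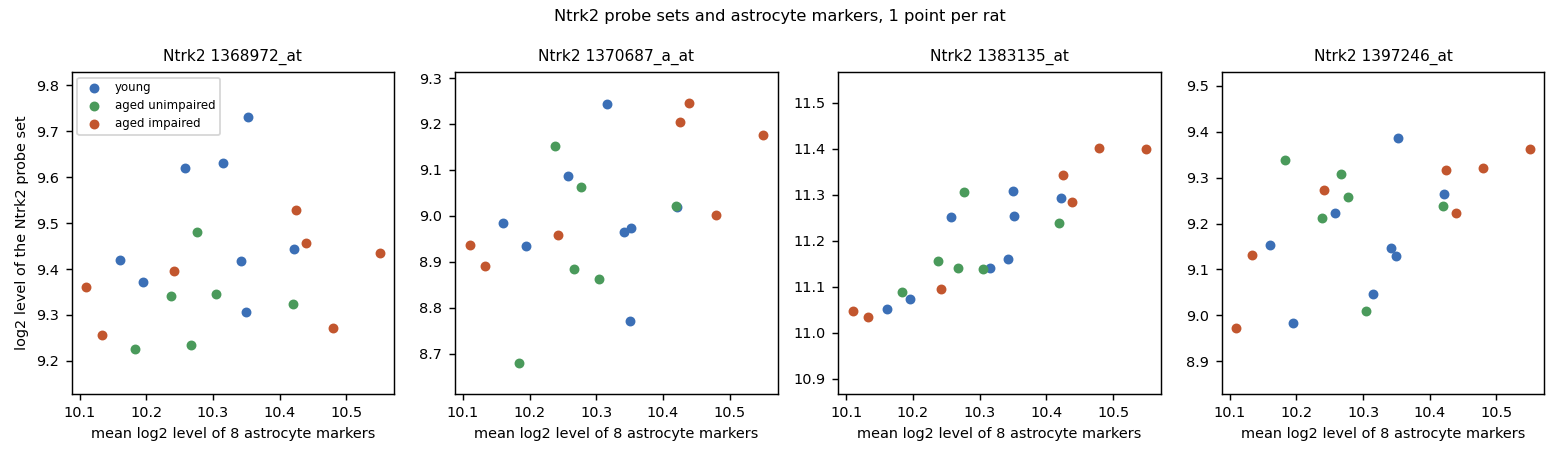
Log2 level of each of the 4 tested Ntrk2 probe sets (vertical axis) against the mean log2 level of 8 astrocyte marker genes (horizontal axis), 1 point per rat, coloured by group. Points for 1383135_at rise with the astrocyte mean (r = 0.88 after subtracting group means), least closely in unimpaired rats (r = 0.54). Those for 1368972_at scatter (r = 0.26).

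The genes that surround these ligands and receptors were taken as 10 lists of 172 genes, of which 155 are on the array and 95, with 148 probe sets, could be tested. In aged against young rats 0 passed as higher and 2 as lower, 1.35% of the probe sets where 1.11% passed over the whole table. In unimpaired against young rats 1 passed as higher and 3 as lower, 2.70% against 1.13%. In impaired against young and in impaired against unimpaired rats limma passed none. At an unadjusted p below 0.05 the counts of the 148 were 31 for aged, 31 for unimpaired and 25 for impaired against young rats. For impaired against unimpaired rats the count was 20. The shares over all probe sets tested were 14.6%, 17%, 12.4% and 14.5% in that order.

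Fgf9, a fibroblast growth factor made by neurons, fell in aged rats. Its probe set 1392865_at ranged from 7.44 to 7.74 in young rats (median 7.67), from 7.25 to 7.49 in unimpaired rats (median 7.30) and from 7.14 to 7.52 in impaired rats (median 7.50). All 13 aged rats were below the young mean, though the lowest young rat lay within the aged range. The difference was -0.27 ± 0.06 (SE; adjusted p = 0.0227 by limma). It passed in 8 of 10 alternatives and in 19 of the 21 fits that each omit 1 array, the exceptions being young replicates 6 and 9 (adjusted p = 0.0593 and 0.0601 by limma). Among the 10, the fit to only the groups compared repeats the main fit here, and averaging the member probe sets leaves the Fgf9 values as they were. Neither is a separate check. Without the 4 meningeal-high arrays the difference was -0.25 (adjusted p = 0.0623 by limma). In unimpaired against young rats it was -0.29 ± 0.07 (SE; adjusted p = 0.0419 by limma), which passed in 4 of 10 alternatives and 10 of 21 of these fits. A dimmer Fgf9 probe set, 1370747_at, did not pass in aged rats, at -0.05 (adjusted p = 0.707 by limma). Among other FGF ligands, 3 of 20 genes could be tested, and all 5 of their probe sets had lower means in aged rats.

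Mef2a, a transcription factor known to act on activity-dependent genes including Bdnf, fell in aged rats by 0.28 ± 0.07 on 1378360_at (SE; adjusted p = 0.0400 by limma). Young rats ranged from 9.79 to 10.19, unimpaired from 9.42 to 9.98 and impaired from 9.59 to 9.92. The aged groups reached into the lower part of the young range. The call passed in 7 of 10 alternatives, with the limit given for Fgf9. It passed in 6 of the 21 fits that each omit 1 array, where the adjusted p was at most 0.0920 by limma (without young replicate 6). Without the 4 meningeal-high arrays it was 0.0748 for a difference of -0.28. The 3 other Mef2a probe sets, at -0.11, -0.22 and -0.27, did not pass. Mef2a 1378360_at was the 1 call among 19 probe sets of the Bdnf regulators, of which 12 were lower, or 9 after median centring.

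The other calls concerned unimpaired against young rats. Fgfbp3, a secreted carrier of fibroblast growth factors, fell by 0.22 ± 0.05 on 1377878_at (SE; adjusted p = 0.0421 by limma), which passed in 5 of 10 alternatives and 6 of 21 omissions of 1 array. Pdk1, a mitochondrial kinase that limits pyruvate oxidation and is known as a hypoxia-induced gene, rose by 0.39 ± 0.08 on 1368079_at (SE; adjusted p = 0.0269 by limma; 6 of 10 and 16 of 21). Its second probe set, 1390203_at, was at -0.13 (adjusted p = 0.372 by limma). Pdgfra, the PDGF receptor of oligodendrocyte precursors, fell by 0.34 ± 0.07 (SE; adjusted p = 0.0344 by limma; 4 of 10 and 15 of 21), with unimpaired rats at 8.40 to 8.75, below all young rats at 8.77 to 9.12. Pdgfra was also the 1 tested marker of 4 for oligodendrocyte precursors, and the part of these cells in its level was not tested. Without the 4 meningeal-high arrays Fgfbp3 still passed (adjusted p = 0.0460 by limma), while Pdk1 and Pdgfra, at 0.39 and -0.33, had adjusted p of 0.0653 and 0.0566.

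**Figure D4:**
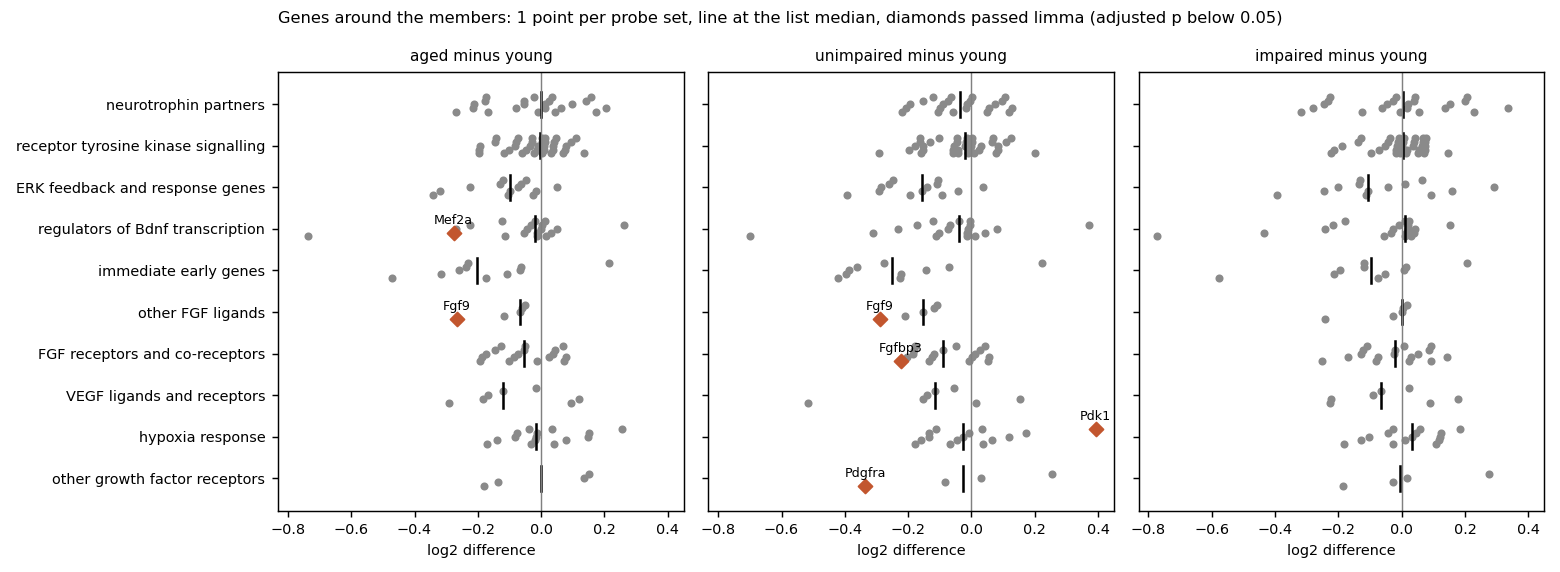
Difference in log2 level (horizontal axis) for each tested probe set of the 10 lists around the members, 1 point per probe set, with a vertical line at each list's median, for aged, unimpaired and impaired rats against young rats. Diamonds mark the probe sets that passed limma at an adjusted p of 0.05: Mef2a and Fgf9 in the first panel, Fgf9, Fgfbp3, Pdgfra and Pdk1 in the second and none in the third.

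Downstream of the receptors, no list held a call, though the means of 2 lists lay mostly to one side. Of 13 probe sets of genes induced by ERK, the kinase that Trk and FGF receptors activate, 0 passed and 12 were lower in aged than young rats, with a median of -0.10 against -0.01 for all probe sets. After median centring or quantile normalization 11 of 13 were lower. The one with the smallest p was Dusp6, a phosphatase that switches ERK off, at -0.34 ± 0.09 on 1387024_at (SE; adjusted p = 0.0774 by limma), which passed in 2 of 10 alternatives. With the 4 meningeal-high arrays left out it was -0.43 (adjusted p = 0.0469 by limma) and 1382778_at passed too, at -0.36 (adjusted p = 0.0490 by limma). With all arrays, its probe set 1382778_at was at -0.32 (adjusted p = 0.0791 by limma) and 1377064_at at -0.12 (adjusted p = 0.452 by limma). For 1387024_at the young rats lay at 7.85 to 8.48, the unimpaired at 7.83 to 8.47 and the impaired at 7.53 to 8.23, so that the lowest young rat was among the aged.

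Of 10 probe sets of immediate early genes, which neurons induce with activity, 0 passed and 9 were lower in aged rats, with a median of -0.20, and the same count held under both other scalings. They include Homer1, a postsynaptic scaffold gene, at -0.26 ± 0.09 on 1370656_a_at (SE; adjusted p = 0.167 by limma), while Arc, which acts in synaptic plasticity, was at 0.21 ± 0.18 (SE; adjusted p = 0.631 by limma). Only 7 of the 14 listed immediate early genes could be tested. At unadjusted p below 0.05 the counts were 4 of 10 here and 4 of 13 for the ERK list, also of 7 tested genes, where the table gave 14.6%. These counts, and those of lower means, are of probe sets. Homer1 and Nr4a3 in the first list and Dusp6 and Etv1 in the second each enter more than once, so the probe sets are not independent. In impaired against young rats 7 of the 10 and 8 of the 13 were lower, with 1 and 2 at that p.

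In the remaining lists the values lay on both sides of 0. FGF receptors and co-receptors had 6 of 17 probe sets higher and 11 lower in aged rats and no call, and there Fgfbp3 was at -0.17 ± 0.04 (SE; adjusted p = 0.0566 by limma). Other growth factor receptors had 2 of 4 higher and 2 lower and no call, with Pdgfra at -0.18 ± 0.06 (SE; adjusted p = 0.167 by limma). Neurotrophin partners, the processing enzymes and co-receptors, had 11 of 22 probe sets higher and 11 lower in aged rats and no call; the smallest p belonged to Sorcs2, a sorting co-receptor of neurotrophin precursors, at -0.17 ± 0.05 (SE; adjusted p = 0.120 by limma). Receptor tyrosine kinase signalling had 18 of 36 higher and 18 lower, with Nras, a small GTPase of the ERK route, at -0.12 ± 0.04 (SE; adjusted p = 0.135 by limma). VEGF ligands and receptors had 2 of 7 higher and 5 lower, with Nrp2, a co-receptor of VEGF, at -0.18 ± 0.10 (SE; adjusted p = 0.390 by limma). The hypoxia list had 6 of 15 higher and 9 lower in aged rats, a split that median centring turned to 9 and 6, and Pdk1 did not pass there, at 0.26 ± 0.07 (SE; adjusted p = 0.0811 by limma), though it passed after median centring and after quantile normalization.

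Of the marker lists for cell types the dissection could hold, several had lower means in unimpaired than in young rats. Averaged over the 7 endothelial probe sets, unimpaired rats lay at 6.81 to 7.01 on the log2 scale and young rats at 7.01 to 7.31. All 6 were below all young rats, but barely, the highest unimpaired rat being at 7.0095 and the lowest young rat at 7.0099. Averaged over 17 meningeal probe sets, all 6 were again below, at 2.94 to 3.01 against 3.03 to 3.44. After median centring 3 of 6 were below all young rats on the endothelial and 1 of 6 on the meningeal mean. The oligodendrocyte mean was 8.52 to 8.80 in unimpaired and 8.73 to 9.06 in young rats, and the precursor mean 4.12 to 4.34 and 4.32 to 4.54. The Fgfr1 and Fgf9 means of unimpaired rats were below those of young rats too. So was that of Pdgfra, which is itself 1 of the 4 probe sets in the precursor mean. The part of these cell types in the 3 genes was not tested. Of 4 tested granule neuron probe sets none passed in any comparison, and Dsp, a desmosomal gene of granule neurons, was at 0.70 ± 0.20 in aged against young rats (SE; adjusted p = 0.0916 by limma). In aged against young rats none passed among markers of CA1 and CA3 neurons (smallest p Wfs1, -0.65), interneurons (Pvalb, 0.13), pericytes (Pdgfrb, 0.15), meninges (Igf2, -0.38) or choroid plexus (Ttr, -0.10). Igf2, a growth factor of the meninges, was at -0.91 ± 0.40 in unimpaired against young rats (SE; adjusted p = 0.251 by limma). Without the 4 meningeal-high arrays it passed in both, at -0.87 in aged and -0.94 in unimpaired against young rats (adjusted p = 0.0224 and 0.0293 by limma). Igf2 is itself in the mean by which those arrays were picked, so its values there depend on that choice and are no separate result. In aged against young rats 1 of 12 oligodendrocyte probe sets passed, Cldn11, a myelin tight junction gene, at -0.43 ± 0.09 on 1376711_at (SE; adjusted p = 0.0154 by limma). Of 6 microglial probe sets 1 passed, the complement gene C1qa at 0.45 ± 0.10 (SE; adjusted p = 0.0280 by limma). The microglial mean over 9 probe sets was 5.70 to 6.12 in young, 5.72 to 5.95 in unimpaired and 5.80 to 6.08 in impaired rats. No aged rat thus lay above the highest young rat on that mean. Of 7 endothelial probe sets 1 passed, the transporter gene Slco1c1 at -0.53 ± 0.06 (SE; adjusted p = 3.2e-05 by limma). In unimpaired against young rats Cldn11, C1qa and Slco1c1 passed in the same directions, and Tek, the angiopoietin receptor of endothelium, fell by 0.51 ± 0.09 (SE; adjusted p = 0.0102 by limma). Slco1c1 passed in impaired against young rats too, at -0.55 (adjusted p = 0.000146 by limma), as did Gfap, at 0.43 (adjusted p = 0.0407 by limma). Cldn11, C1qa and Tek did not pass there.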

How the data were processed

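GCRMA, named without a version in the submitters' processing notes, gave the deposited log2 value of each probe set, which was used without further scaling. The 57 control probe sets were left out, and the 15177 probe sets above log2 4 on 6 or more arrays, as many as the smallest group holds, were tested. Symbols are those of the platform annotation, and a probe set with several symbols was not named. All 3 groups were fitted together with limma 3.58.1 in R 4.3.3 (18 residual degrees of freedom), with Benjamini-Hochberg adjustment over all probe sets tested, and the code was checked on simulated data. Young replicate 9, placed among the unimpaired arrays in the listing, was grouped by its title and age. Relations used 100000 permutations within groups. Marker means in relations average the tested probe sets of each gene, then genes. The meningeal mean of each array and the marker means compared between groups average all probe sets of a list, tested or not. Start windows and their sequences are RefSeq's, on GRCr8. From the lists the text names each probe set that passed and the one with the smallest p in aged against young rats, and for each member the 3 genes most like it; exceptions were chosen after their values were seen. The members and lists were chosen with earlier results of these data known. Alternatives were other level filters, scalings, weights, priors and fits, and arrays left out. For aged against young rats the fit to only the groups compared repeats the main fit. Averaging the member probe sets leaves the values of list genes as they were. The number of arrays limits the precision.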

Additional observations from a re-analysis of the deposited data

Results flagged for a closer look

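Of 42 groups (14 member probe sets in 3 groups), 6 held 1 rat far from the others of its group, by the gap to its neighbour as a share of the range. Chance marks about 1 in 20 groups. Among tested probe sets, unimpaired replicate 4 had an Ntf3 level of 7.29 where the next unimpaired rat had 8.06. Young replicate 7 had a Vegfa level (1373807_at) of 7.41 where the next young rat had 7.83. The other 4 lie in probe sets below 4 on every array. Bdnf 1368678_at read 3.59 on young replicate 1 (next 3.38) and 3.72 on unimpaired replicate 4 (next 3.39). Fgf2 read 2.31 on unimpaired replicate 8 (next 2.01). Vegfa 1370081_a_at read 2.65 on impaired replicate 3 (next 2.70).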

How the results depend on the processing

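No member probe set passed in the 384 values from alternatives other than leaving out an array (lowest adjusted p 0.123, limma) or in the 840 with 1 array left out (lowest 0.134), and 27 and 32 of these had the other sign. Calls over the whole table moved more. Without the level filter, 90 probe sets passed in aged, 33 in impaired and 67 in unimpaired against young rats, beside 168, 78 and 172. With the 4 meningeal-high arrays left out the counts were 86, 29 and 95, and with only the groups compared 33 in impaired and 69 in unimpaired against young and 1 in impaired against unimpaired rats. The replicate block gave 76 in aged, 114 in impaired and 9 in unimpaired against young rats and changed no call of a member. Replicate numbers mark separate rats, and were not taken as pairing them. Of 17 pairs of the same number 4 correlated over 0.1 (median -0.01, beside -0.0036 for pairs of other numbers). For 7 of the 21 arrays the best match in another group had the same number. No chance share was worked out for that count, and whether arrays of the same number shared a step was not tested.

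Scaling changed the split of calls. In aged against young rats 61 of 168 were higher, 116 of 203 after median centring and 124 of 232 after quantile normalization; the split was 47 of 78, 56 of 100 and 56 of 112 in impaired and 30 of 172, 62 of 115 and 64 of 125 in unimpaired against young rats. With 1 array left out, aged against young gave 89 (without young replicate 6) to 239 calls (without young replicate 5), and 91 without young replicate 9. Impaired against young gave 36 to 161: 36 without young replicate 3 or 9 or impaired replicate 2, 37 without young replicate 6, 39 without impaired replicate 3, 41 without young replicate 7, 45 without impaired replicate 7, 51 without unimpaired replicate 3 and 161 without young replicate 5. Unimpaired against young gave 59 (without young replicate 9) to 219, with 67 without young replicate 6 and 78, 80, 92, 110 and 111 without unimpaired replicates 8, 4, 1, 3 and 6. Impaired against unimpaired gave 0 to 4 (without unimpaired replicate 7).

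Among relations between members, 1 passed without the 4 arrays, Ntf3 with Fgfr1, with the arrays it rested on still in. Among those with marker means 0 did there. The members with the other sign were, in aged against young rats, Ntrk2 1370687_a_at at -0.0093 with array weights, -0.010 with the replicate block and -0.040 without the 4 arrays, Ntrk3 at 0.0037 with the block and Ntrk2 at -0.015 as a mean of its probe sets. In impaired against young rats Ntrk3 was at 0.0093 with the block. In unimpaired against young rats Bdnf was at -0.050 with weights, Ntrk2 1370687_a_at at 0.0013 with median centring and 0.0067 with quantiles, Ntrk2 1383135_at at 0.041, 0.032, 0.0025 and 0.0032 with centring, quantiles, weights and without the 4 arrays, and Ntrk3 at 0.013 with centring. In impaired against unimpaired rats, median centring gave -0.00028, -0.0097 and -0.059 for Ntrk2 1368972_at, 1383135_at and 1397246_at and -0.053 for Ntrk3. Quantile normalization gave -0.0060, -0.019 and -0.062 for those, -0.039 for Ntrk3 and -0.00030 for Ntf3, which was at -0.0093 with weights. Without the 4 arrays Ntrk2 1397246_at was at -0.030, Ntrk3 at -0.010 and Vegfa at 0.017. The cause was not tested.

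With 1 array left out, ranges that crossed 0 were -0.028 to 0.040 for Ntrk2 1370687_a_at and -0.0082 to 0.029 for Ntrk2 1383135_at in aged against young, -0.10 to 0.021 for Fgfr1 1387498_a_at in impaired against young, and -0.0087 to 0.15 for Bdnf and -0.039 to 0.0042 for Ntrk2 1383135_at in unimpaired against young rats. In impaired against unimpaired rats they were -0.087 to 0.12 for Ntf3, -0.042 to 0.044 for Ntrk2 1397246_at and -0.016 to 0.032 for Ntrk3. The choroid plexus gene Ttr ranged from -0.52 to 0.63 in aged against young rats.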
